A study of Homo sapiens with 2 samples.

Results

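The zinc finger genes of chromosome 19 are the protein-coding genes whose symbol is ZNF with a number, and at most 1 further letter, and whose transcripts lie on that chromosome. The rule uses names and positions only, and it gave 249 of the 46732 genes listed. Their levels were read in 2 RNA-seq libraries of secondary mammospheres of T47D cells, 1 labelled CIC knockdown and 1 control. T47D is an established human breast cancer line of luminal type that expresses the estrogen receptor, and mammospheres are clusters of cells grown in suspension. Both kinds of cells were grown for 7 days as primary and, once passaged, for 7 days as secondary mammospheres, so the groups share line, culture and timing. How CIC was knocked down is not stated in the labels. The tables hold 1 column per group although the design mentions duplicates, so a column may or may not be a pool.

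Most zinc finger genes of this chromosome belong to the KRAB family. Their proteins bind DNA through a row of C2H2 zinc fingers, and the KRAB domain recruits the corepressor TRIM28, with which the histone methyltransferase SETDB1 lays down repressive marks. Many of them bind transposable elements. The family grew by repeated local duplication, which left its genes in clusters of similar sequence. CIC (capicua) is itself a DNA-binding repressor, with an HMG box that recognises the octamers TGAATGAA and TGAATGGA.

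The library labelled CIC knockdown held 68420805 counts and the control library 47099221. CIC mRNA, which sits among these genes on chromosome 19, had 872 counts in the library labelled CIC knockdown and 607 in control, a ratio of 0.98 with a 95% counting interval of 0.882 to 1.09. The targeted gene was therefore no check on the label, and every direction below is between libraries as labelled. The 9 luminal epithelial markers were all measured, and their summed level was 8115 TPM in the library labelled CIC knockdown and 8021 TPM in control. Most of that sum came from KRT8, KRT18 and KRT19. PGR had 4.95 TPM in the library labelled CIC knockdown and 2.29 TPM in control, a log2 ratio of 1.05. The log2 ratios of the others lay between -0.06 (GATA3) and 0.18 (FOXA1). The 6 fibroblast markers summed to 26.04 TPM in the library labelled CIC knockdown and 14.1 TPM in control. Among them COL1A2 and PDGFRB had 0 counts in both libraries, COL3A1 had 23.1 TPM in the library labelled CIC knockdown and 9.38 TPM in control, and LUM had 2.44 TPM in the library labelled CIC knockdown and 4.44 TPM in control. Leukocyte markers summed to 0.207 and 0.0493 TPM and endothelial markers to 0.155 and 0.0740 TPM, knockdown library first. The part of these markers in the results was not tested. In RNA from whole cultures, fewer cells of a type and less RNA per cell cannot be told apart.

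A single library per group leaves no replicate, so nothing was tested. Each value is a log2 ratio of the library labelled CIC knockdown to control, from counts scaled by library size, and its 95% interval covers counting error only. A gene is called higher or lower where that interval lies wholly above or below a ratio of 1. A gene counts as measured with at least 100 counts summed over both libraries. This held for 200 of the 249 zinc finger genes, and the other 49 were listed at 0 in both libraries (14 genes) or had fewer counts (35 genes).

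These genes were expressed at low levels that changed little as a whole. Together they took 0.365% of the counts in the library labelled CIC knockdown and 0.357% in control, or summed levels of 1013 and 970.4 TPM. The median level of the measured genes was 3.70 TPM in the library labelled CIC knockdown and 3.39 TPM in control, against 8.35 and 8.04 TPM for all measured protein-coding genes. Only 20 of them passed 10 TPM in the library labelled CIC knockdown and 21 in control. Their median log2 ratio was 0.07, with 90% of genes between -0.48 and 0.52. The same median was 0.02 over all 14827 measured genes, 0.03 over 12618 protein-coding genes, 0.08 over the other 694 measured protein-coding genes of chromosome 19 and -0.01 over 222 measured ZNF genes of other chromosomes.

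By counting interval, 68 of the 200 measured zinc finger genes (34.0%) had more in the library labelled CIC knockdown, against 32.0% of all measured genes and 35.2% of protein-coding ones. A further 37 were lower (18.5%), against 27.0% of all and 27.1% of protein-coding genes, and 95 had an interval that spanned 1. At least 1.5-fold, 8 were higher, or 4% of those measured, where the share was 4.65% over all and 4.51% over protein-coding genes. Another 9 were at least 1.5-fold lower, or 4.5%, where it was 4.61% and 3.72%. At least 2-fold, 4 were higher, or 2%, where the share was 1.35% over all and 1.27% over protein-coding genes. Another 5 were at least 2-fold lower, or 2.5%, where it was 1.27% and 1.03%. The shares past 1.5-fold are thus near those of the whole table, while those past 2-fold are above them but rest on 4 and 5 genes. The other protein-coding genes of chromosome 19 had 40.6% called higher and 19.02% called lower, so their share called lower was close to that of the zinc finger genes.

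**Figure D1:**
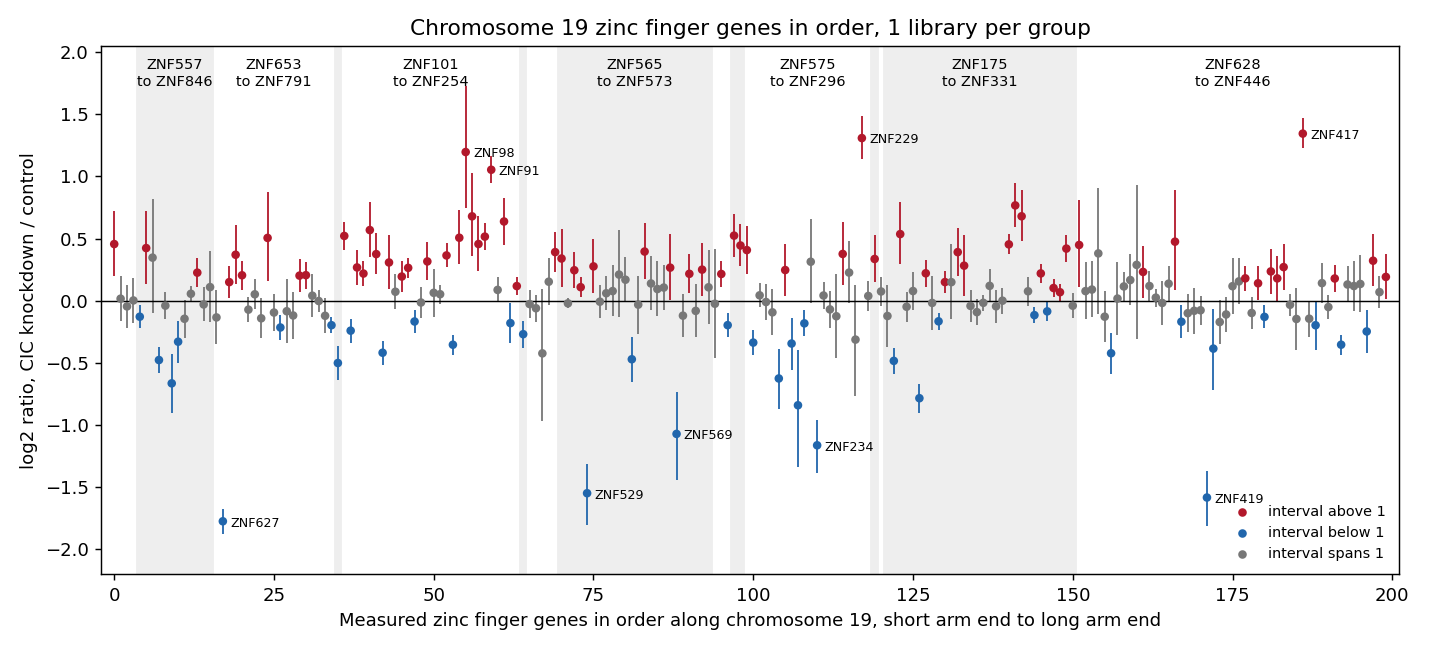
Log2 ratio of the library labelled CIC knockdown to control (y axis) for the 200 measured zinc finger genes, in order from the short arm end to the long arm end of chromosome 19 (x axis). Points are ratios, bars are 95% counting intervals, colours give the call, and shading marks alternate clusters; the 9 genes past 2-fold are named, and ratios above 0 gather in the cluster from ZNF101 to ZNF254.

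Along the chromosome the genes fell into 16 groups when a new one was begun at each gap of over 1 Mb. The group from ZNF101 to ZNF254, at 19.7 to 24.1 Mb on GRCh38, takes in the cluster known as 19p12, though its bounds come from the gap rule. It held 38 of the genes, and 28 were measured. In the library labelled CIC knockdown, 18 of these were higher (64.3%), 5 were lower and 5 spanned 1, with a median log2 ratio of 0.27. Its measured genes summed to 173.03 TPM in the library labelled CIC knockdown and 148.9 TPM in control. The 172 measured zinc finger genes outside this cluster had a median of 0.04, and 29.1% of them were higher. The cluster was singled out with its values known, as its median was the highest of the clusters with 10 or more measured genes. Its difference from the rest thus follows in part from that choice. No test of that difference is possible with 1 library per group.

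The shift in this cluster was spread over many genes. Without ZNF91 its median was 0.26. Over its 13 genes with at most 20% of their counts divided differently between transcripts it was 0.27. Of these 13, 7 have 1 listed transcript and so no counts to divide. Its 20 measured genes whose GENCODE transcript with the longest protein shares no stretch of 100 bases with another gene had a median of 0.23. Transcripts of the cluster are poor in G and C, with 33.9 to 45.0% GC and a median of 37.2%. The median was 42.3% over all measured zinc finger genes and 48.6% over measured protein-coding genes. Protein-coding genes other than these zinc finger genes in the cluster's GC range had a median log2 ratio of -0.00 (n = 4399). Zinc finger genes elsewhere on the chromosome in that range had -0.01 (n = 111). These sets share the range only and were not matched to the cluster on GC within it.

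**Figure D2:**
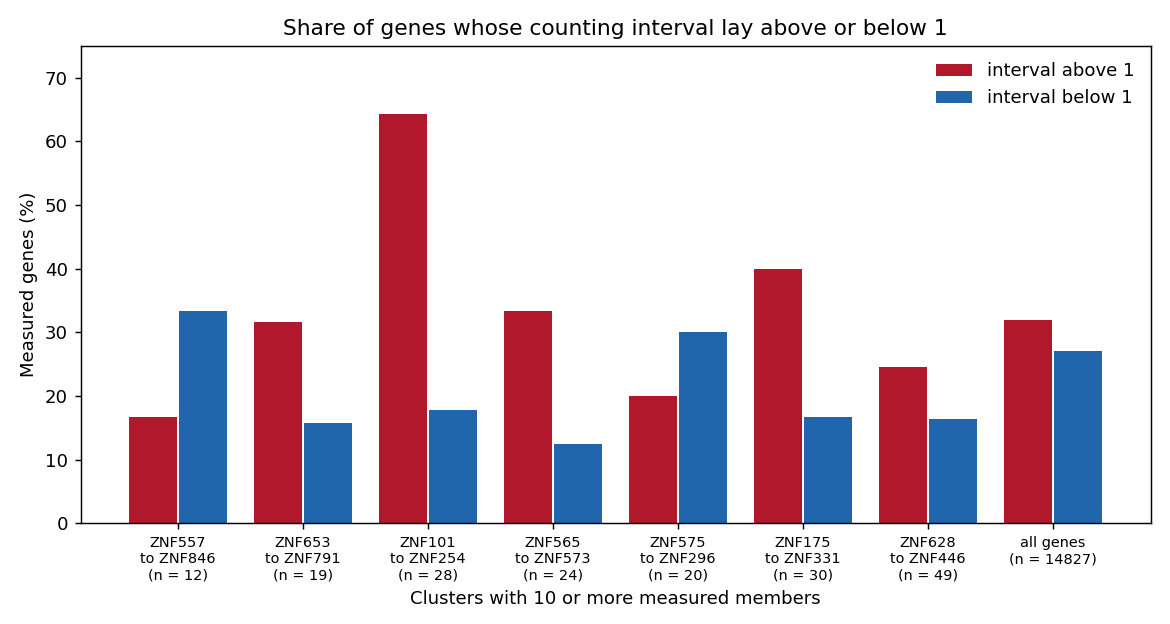
Percent of measured genes (y axis) whose 95% counting interval lay above or below a ratio of 1, for the 7 clusters with 10 or more measured genes and for all measured genes (x axis). The cluster from ZNF101 to ZNF254 stands at 64.3% above 1, where all genes stand at 32.0%.

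Within the cluster, the genes with the highest ratios stood at low to middle levels. ZNF91, whose protein binds SVA retrotransposons, had 2730 counts (8.58 TPM) in the library labelled CIC knockdown and 896 counts (3.76 TPM) in control. The knockdown library was higher by a log2 ratio of 1.05, or 2.08-fold with an interval of 1.93 to 2.24. ZNF93, which binds L1 retrotransposons, had 547 counts (2.99 TPM) and 251 counts (1.96 TPM), knockdown library first, a log2 ratio of 0.57 with a fold interval of 1.28 to 1.73. Both repressors of mobile elements were thus higher by counting interval.

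ZNF98 had the highest ratio of the cluster, from few counts: 161 (1.04 TPM) in the library labelled CIC knockdown and 47 (0.432 TPM) in control. Its log2 ratio was 1.20, with a fold interval of 1.68 to 3.31. ZNF492 had 255 counts in the library labelled CIC knockdown and 108 in control, a log2 ratio of 0.68 with a fold interval of 1.28 to 2.04. These genes are close copies: 33.1% of the 100-base stretches of the ZNF98 transcript with the longest protein also occur in ZNF492. The counting could thus divide reads between them. ZNF681 shares no such stretch and has 1 listed transcript. It had 761 counts (1.77 TPM) in the library labelled CIC knockdown and 333 counts (1.104 TPM) in control, a log2 ratio of 0.64 with a fold interval of 1.37 to 1.78.

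ZNF254 and ZNF675, the most abundant genes of the cluster by the mean of both libraries, differed little. This did not hold for all abundant ones, as ZNF724, at 11.7 and 7.95 TPM, knockdown library first, had a log2 ratio of 0.52. ZNF254 had 15.4 TPM in the library labelled CIC knockdown and 13.8 TPM in control, a log2 ratio of 0.12 with a fold interval of 1.03 to 1.14. ZNF675, an inhibitor of TRAF6 signalling, had 13.4 TPM in the library labelled CIC knockdown and 12.3 TPM in control, and its interval of 0.991 to 1.14 spanned 1. The 5 genes called lower in the cluster, named after their values were seen, were ZNF737 (-0.42), ZNF43 (-0.35), ZNF14 (-0.24), ZNF726 (-0.18) and ZNF431 (-0.17 on the log2 scale). The TPM of ZNF737 and of ZNF431 point the other way, at 6.13 and 5.35 TPM for ZNF737 and at 2.96 and 2.95 TPM for ZNF431, knockdown library first. These 2 were the only measured zinc finger genes called by counts whose TPM had the opposite sign.

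**Figure D3:**
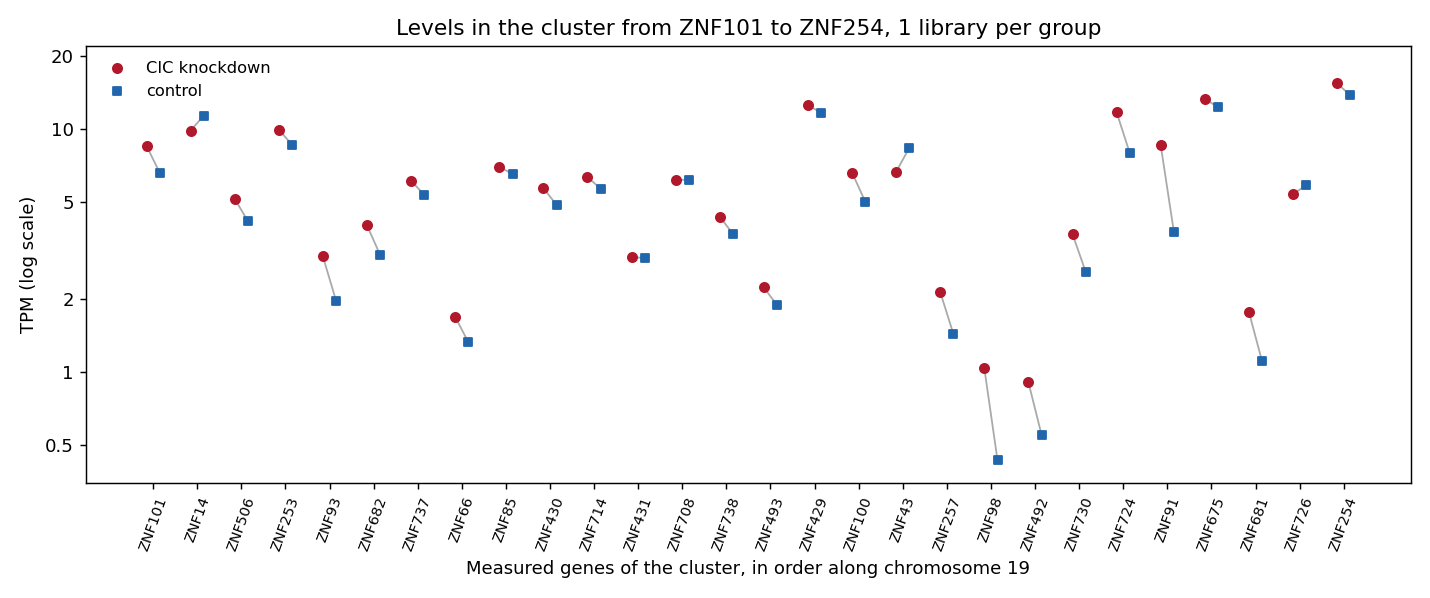
Level in TPM (y axis, log scale) of the 28 measured genes from ZNF101 to ZNF254, in chromosome order (x axis), with the library labelled CIC knockdown (circle) left of control (square) for each gene. ZNF91 stands at 8.58 TPM in the library labelled CIC knockdown and 3.76 TPM in control, while ZNF254 stands at 15.4 and 13.8 TPM.

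Because CIC binds the octamers TGAATGAA and TGAATGGA, both were searched on both strands (reverse complements TTCATTCA and TCCATTCA) in RefSeq promoters of GRCh38.p14. A promoter here runs from 250 bases before a gene's start to 50 after it. The search took 1 start per gene, and ZNF254, ZNF730, ZNF43, ZNF723 and ZNF627 also have listed transcripts that begin upstream of that start. The ZNF254 transcripts XM_011528443 and XM_011528444 begin upstream, with 972 and 964 counts in the library labelled CIC knockdown and 4 and 163 in control. The gene's totals were 4101 and 2577 counts. Promoters at such other starts were not searched, so whether they hold an octamer was not tested. Of all 27305 genes with such a promoter, 879 held an octamer (3.22%). Among the zinc finger genes it was 13 of 216 (6.02%), and 11 of these 13 lay in the cluster, where 29 genes have a promoter in the table (37.9%). Elsewhere on the chromosome 2 of 187 held one. The search and the genes named from it were chosen after the values were seen, and a match describes letters, not a bound site.

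In most carriers of the cluster the octamer lies in a block of sequence that the promoters of this cluster share. The 60 bases around it are shown for 7 of the 9 measured carriers, 5′ to 3′ on the gene's strand, with the octamer in capitals.
ZNF91 (chr19:23395592-23395651, minus strand): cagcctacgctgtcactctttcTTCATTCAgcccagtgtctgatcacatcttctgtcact
ZNF681 (chr19:23759010-23759069, minus strand): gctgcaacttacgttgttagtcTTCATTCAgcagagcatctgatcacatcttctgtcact
ZNF724 (chr19:23250509-23250568, minus strand): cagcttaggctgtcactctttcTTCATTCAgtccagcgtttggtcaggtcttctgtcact
ZNF257 (chr19:22052310-22052369, plus strand): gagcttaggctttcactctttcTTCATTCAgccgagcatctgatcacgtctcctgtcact
ZNF730 (chr19:23116854-23116913, plus strand): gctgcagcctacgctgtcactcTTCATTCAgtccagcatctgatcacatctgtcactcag
ZNF726 (chr19:23914705-23914764, plus strand): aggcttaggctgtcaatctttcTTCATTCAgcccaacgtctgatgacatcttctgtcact
ZNF708 (chr19:21329473-21329532, minus strand): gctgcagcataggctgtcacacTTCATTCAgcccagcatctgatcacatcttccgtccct
At the same place in a shared block, other genes of the cluster hold 8 letters that are neither octamer. They are shown for comparison, again with those 8 letters in capitals.
ZNF93 (chr19:19900769-19900828, plus strand): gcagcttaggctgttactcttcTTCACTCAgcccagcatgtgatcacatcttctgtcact
ZNF714 (chr19:21082023-21082082, plus strand): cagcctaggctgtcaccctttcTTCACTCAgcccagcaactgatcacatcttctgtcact
ZNF675 (chr19:23687298-23687357, minus strand): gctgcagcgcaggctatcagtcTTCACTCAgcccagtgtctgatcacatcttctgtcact
ZNF431 (chr19:21141860-21141919, plus strand): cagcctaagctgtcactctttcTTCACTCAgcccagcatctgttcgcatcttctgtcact
ZNF85 (chr19:20923077-20923136, plus strand): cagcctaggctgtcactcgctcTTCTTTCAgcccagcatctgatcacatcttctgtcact
ZNF254 (chr19:24087013-24087072, plus strand): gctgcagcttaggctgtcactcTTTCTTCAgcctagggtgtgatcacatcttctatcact
In ZNF492 and ZNF43 the octamer lies outside that position, and in ZNF627, in another cluster, the surrounding sequence matches that of ZNF91 at 18 of 60 bases. The octamer is in capitals.
ZNF492 (chr19:22634220-22634279, plus strand): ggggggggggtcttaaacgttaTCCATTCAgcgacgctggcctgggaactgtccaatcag
ZNF43 (chr19:21836271-21836330, minus strand): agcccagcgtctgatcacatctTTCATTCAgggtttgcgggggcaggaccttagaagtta
ZNF627 (chr19:11597403-11597462, plus strand): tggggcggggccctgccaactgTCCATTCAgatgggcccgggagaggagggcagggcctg

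A block with at least 40 of the 60 bases of the ZNF91 sequence was found in 37 promoters, 23 of them in this cluster. Of those 23 genes, 10 had an octamer somewhere in the promoter and 13 had none. The 9 measured carriers of the cluster had a median log2 ratio of 0.51. Outside the cluster, the measured carrier ZNF627 went the other way, with the lowest log2 ratio of all measured zinc finger genes (-1.77). The carriers of the cluster were ZNF91 (1.05), ZNF492 (0.68), ZNF681 (0.64), ZNF724 (0.52), ZNF257 (0.51), ZNF730 (0.46), ZNF708 (-0.01), ZNF726 (-0.18) and ZNF43 (-0.35). Counting intervals put 6 of them above 1, 2 below and 1 across it, and 3 of the 9 passed 1.5-fold. The 15 measured genes of the cluster with a promoter and no octamer had a median of 0.12. Of these, 8 were above 1, 3 below and 4 across, and 0 passed 1.5-fold. The share above 1 was thus 66.7% of carriers and 53.3% of genes without an octamer. Over all measured genes 32.0% were above 1, 27.0% below, and 4.65% at least 1.5-fold higher.

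The ranges of these groups overlapped, at -0.35 to 1.05 for carriers and -0.42 to 0.57 for genes with a promoter and no octamer. Another 4 measured genes of the cluster, ZNF98 (1.20), ZNF738 (0.32), ZNF506 (0.27) and ZNF253 (0.22), could not be placed, since the table gives no promoter for them; all 4 were called higher. ZNF93, without an octamer, had a higher ratio than the carriers ZNF724 and ZNF257. ZNF724 had 2150 counts (11.7 TPM) in the library labelled CIC knockdown and 1025 counts (7.95 TPM) in control. ZNF708 had 1272 counts in the library labelled CIC knockdown and 876 in control, and its fold interval of 0.908 to 1.08 spanned 1 although its promoter holds the same block and octamer. The carriers ZNF208 and ZNF723 were at 0 counts in both libraries. Outside the zinc finger genes, 9.13% of the 252 measured protein-coding genes with an octamer were at least 1.5-fold higher, against 4.04% of the 9937 without. At least 1.5-fold lower were 4.37% of the genes with an octamer and 3.51% of those without, and the medians were 0.04 and 0.03. These genes include ZNF genes of other chromosomes.

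**Figure D4:**
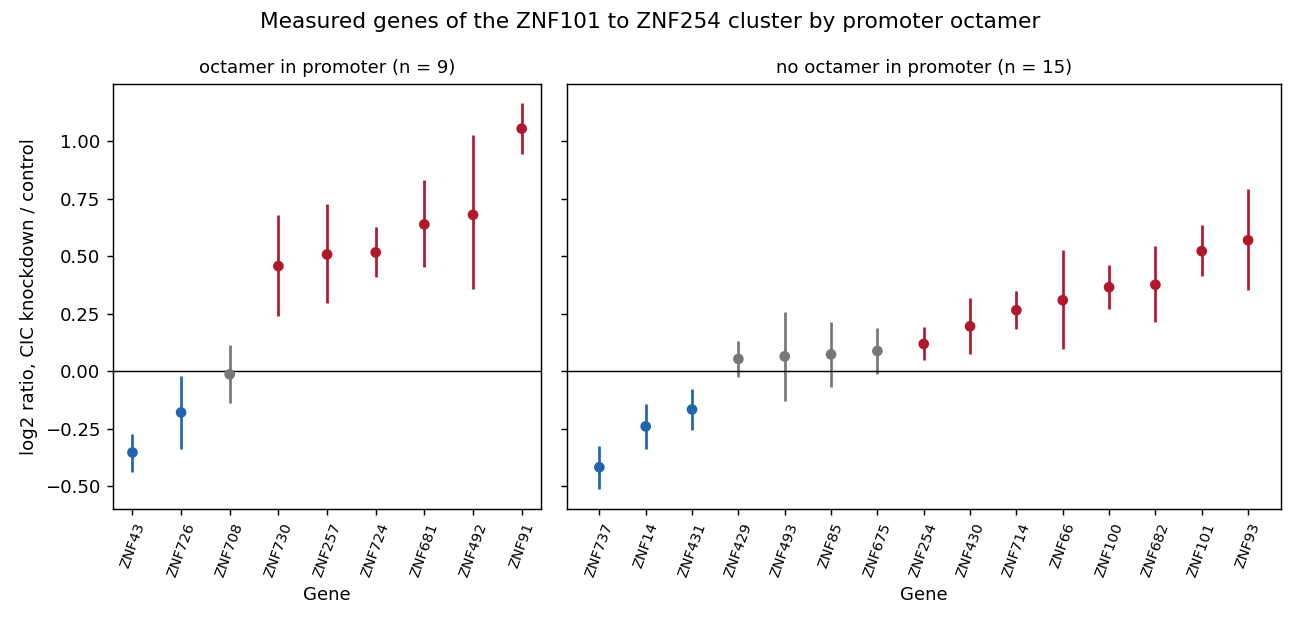
Log2 ratio of the library labelled CIC knockdown to control (y axis) for measured genes of the ZNF101 to ZNF254 cluster, with (left, n = 9) and without (right, n = 15) an octamer in the promoter, ordered by ratio. Bars are 95% counting intervals; the groups overlap, and the median is 0.51 on the left and 0.12 on the right.

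The highest ratios outside that cluster were those of ZNF417 and ZNF229, whose measured neighbours on both sides had intervals that spanned 1. ZNF417, whose protein binds endogenous retroviruses, had 2640 counts (8.38 TPM) in the library labelled CIC knockdown and 708 counts (3.13 TPM) in control. Its log2 ratio of 1.34 was the highest of all measured zinc finger genes, with a fold interval of 2.34 to 2.77. Its close copy ZNF587, named after its values were seen, had 2516 counts in the library labelled CIC knockdown and 1755 in control, a log2 ratio of -0.03. Of the 100-base stretches of the ZNF417 transcript with the longest protein, 24.1% occur in ZNF587. A division of reads between them could thus move either value.

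ZNF229 had 1322 counts (3.82 TPM) in the library labelled CIC knockdown and 363 counts (1.53 TPM) in control. Its log2 ratio was 1.31, with a fold interval of 2.21 to 2.80. Of its 6 listed transcripts, NR_103551 had 483 counts in the library labelled CIC knockdown and 52 in control, while NM_014518 had 272 and 219, which is no more once library size is taken into account. ZNF320 (0.77), ZNF888 (0.68) and ZNF615 (0.54) lie in the cluster from ZNF175 to ZNF331 and were also among the 10 highest log2 ratios. ZNF320 and ZNF888 are adjacent, next to ZNF468 (0.45), and all 3 were called higher. For ZNF320, 99.5% of its 100-base stretches occur in other genes, so its 895 counts in the library labelled CIC knockdown and 358 in control are uncertain.

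The 5 genes at least 2-fold lower lay in 4 different clusters. ZNF627 had 1131 counts (6.07 TPM) in the library labelled CIC knockdown and 2642 counts (20.2 TPM) in control. Its log2 ratio of -1.77 was the lowest, with a fold interval of 0.272 to 0.313. One of its transcripts, NM_145295, had 259 counts in the library labelled CIC knockdown and 1978 in control, while another, NM_001290084, had 608 and 258. The fall was therefore not shared by all its transcripts, and 55.4% of its counts were divided differently between them in the 2 libraries.

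ZNF419, known as the source of a minor histocompatibility antigen, had 250 counts (1.26 TPM) in the library labelled CIC knockdown and 514 counts (3.11 TPM) in control, a log2 ratio of -1.58. ZNF529 had 206 counts (1.07 TPM) in the library labelled CIC knockdown and 414 counts (2.07 TPM) in control, a log2 ratio of -1.55. Here 95.4% of the counts were divided differently: a single transcript, XM_006723302, had 0 counts in the library labelled CIC knockdown and 362 in control. ZNF529 also overlaps the antisense gene ZNF529-AS1 and the neighbour ZNF382.

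ZNF234 had 298 counts (1.18 TPM) in the library labelled CIC knockdown and 457 counts (2.19 TPM) in control, a log2 ratio of -1.16 with a fold interval of 0.383 to 0.516. In the same cluster, ZNF284 (-0.84) and ZNF230 (-0.63) were among the 10 lowest too, while ZNF229 was among the highest. ZNF569, reported as a repressor of MAPK signalling, had 116 counts (0.426 TPM) in the library labelled CIC knockdown and 168 counts (0.878 TPM) in control, a log2 ratio of -1.07. ZNF841 (-0.78), ZNF699 (-0.66) and ZNF333 (-0.50) complete the 10 lowest. On the TPM scale with a pseudocount of 0.1, only ZNF627 and ZNF419 of the 5 were at least 2-fold lower. Without the pseudocount ZNF569, at 0.426 and 0.878 TPM, passed 2-fold as well.

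Neighbouring genes had little in common in their ratios. Over 185 pairs of neighbouring measured genes within a cluster, Pearson's r of their log2 ratios was 0.07 and Spearman's rho was 0.03, as a description over genes that share both libraries. The 2 genes had the same sign in 97 of the pairs. Medians of the other large clusters lay between -0.07 and 0.11. The cluster from ZNF653 to ZNF791 (-0.07, n = 19) and that from ZNF575 to ZNF296 (-0.04, n = 20) were lowest. Those from ZNF557 to ZNF846 (-0.03, n = 12), ZNF175 to ZNF331 (0.07, n = 30), ZNF628 to ZNF446 (0.09, n = 49) and ZNF565 to ZNF573 (0.11, n = 24) followed.

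The pair of zinc finger genes nearest to CIC was higher. ZNF526, 40.3 kb from CIC and named after its values were seen, had 857 counts (3.23 TPM) in the library labelled CIC knockdown and 429 counts (2.32 TPM) in control, a log2 ratio of 0.44. ZNF574, the next one out, had 876 counts (4.28 TPM) in the library labelled CIC knockdown and 415 counts (2.91 TPM) in control, a log2 ratio of 0.52. Their fold intervals were 1.21 to 1.53 for ZNF526 and 1.28 to 1.62 for ZNF574. CIC itself was at 0.98-fold.

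Smaller groups and single genes fill the rest of the chromosome. ZNF554 (0.46) was the only one called of 4 measured genes near the short arm end, where ZNF57 had the highest level at 5.26 and 5.29 TPM, knockdown library first. ZNF507 stands alone and was lower, at a log2 ratio of -0.27. ZNF114 was higher, at 0.34. ZNF780B (0.22) and ZNF780A (-0.20) are adjacent relatives that were called in opposite directions. ZNF302 (-0.03) and ZNF599 (-0.42, from 65 and 60 counts) had intervals that spanned 1, and ZNF536, a repressor of neuronal differentiation, had 6 counts in each library.

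The most abundant zinc finger genes showed small differences. ZNF146, made almost wholly of zinc fingers and without a KRAB domain, had the highest level at 48.3 TPM in the library labelled CIC knockdown and 46.9 TPM in control, and its fold interval of 0.958 to 1.01 spanned 1. ZNF83 stood at 23.9 and 23.3 TPM, knockdown library first, with a fold interval of 0.944 to 1.04. ZNF428, above ZNF83 in control only, was lower, with 22.5 TPM in the library labelled CIC knockdown and 27.7 TPM in control and a log2 ratio of -0.34. ZNF160 (-0.12) and ZNF544 (-0.35) were lower as well, while ZNF460 (0.03) spanned 1. ZNF761 had a log2 ratio of 0.07 and an interval that barely cleared 1, and was at -0.15 when assembled transcripts were counted too. ZNF564 (-0.00) and ZNF121 (0.06), the most abundant of their clusters by the mean of both libraries, spanned 1, though ZNF627 stood above ZNF564 in control.

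Among the genes whose roles are best known, the directions were mixed. ZNF350 (ZBRK1), a partner of BRCA1 in repression, had 1437 counts (8.86 TPM) in the library labelled CIC knockdown and 1371 counts (12.1 TPM) in control, a log2 ratio of -0.48 with a fold interval of 0.663 to 0.770. ZNF568 (-0.47) and the aldolase A repressor ZNF224 (-0.18) were lower too, and 86.2% of the counts of ZNF568 were divided differently between its transcripts. ZNF274, which brings SETDB1 to the 3′ ends of zinc finger genes, was higher at 9.18 TPM in the library labelled CIC knockdown and 7.59 TPM in control, a log2 ratio of 0.18 with a fold interval of 1.05 to 1.22. ZNF473, a factor in histone mRNA processing, spanned 1 at 0.07, as did ZNF304 (0.14), ZNF444 (0.17), a SCAN-domain factor, and ZNF331 (-0.04).

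**Figure D5:**
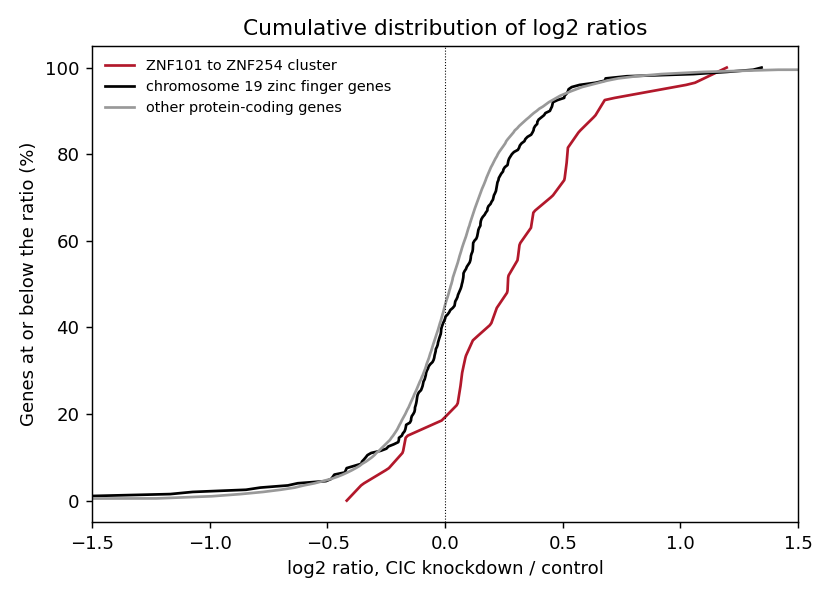
Cumulative percent of measured genes (y axis) at or below each log2 ratio of the library labelled CIC knockdown to control (x axis), for the ZNF101 to ZNF254 cluster, all measured zinc finger genes of chromosome 19 and other protein-coding genes. The cluster's curve lies to the right of the others, with a median of 0.27; the medians are 0.07 for all the zinc finger genes and 0.03 for other protein-coding genes.

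The coding sequences separate the genes by domain. A KRAB pattern, at least 18 of 36 positions identical to the family's consensus, was found in 210 of the 246 genes with a GENCODE coding sequence. These had a median of 13 finger patterns, and the 36 others had 9. The most, 36, were in ZNF208, which had no counts, while ZNF91 had 31. The 170 measured KRAB genes had a median log2 ratio of 0.05, with 58 higher (34.1%) and 34 lower (20%). The 29 measured genes without the pattern had 0.12, with 10 higher (34.5%) and 3 lower (10.3%), against 32.0% higher and 27.0% lower over all genes.

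Of 34 genes that work with KRAB proteins, 33 were measured, with a median log2 ratio of 0.07. By counting interval 18 of them were higher and 6 lower, against 32.0% and 27.0% of all genes. TRIM28, the corepressor that KRAB domains bind, had 76.0 TPM in the library labelled CIC knockdown and 63.8 TPM in control, a log2 ratio of 0.22. SETDB1 had 25.5 TPM in the library labelled CIC knockdown and 27.3 TPM in control, a log2 ratio of -0.16. The largest values were those of MBD3, a subunit of the NuRD complex (1.73), UHRF1, which brings DNMT1 to replicated DNA (0.63), SUV39H1, a histone methyltransferase (0.34), and the DNA methyltransferase DNMT1 itself (0.32). Of 18 zinc finger genes of the chromosome with names other than ZNF, 17 were listed, 8 had 0 counts in both libraries and 7 were measured, with a median of -0.04, 2 higher and 2 lower. ZBTB7A, a BTB-domain repressor, was at 0.85, ZSCAN5A at 0.51, ZSCAN18 at -0.29 and ZSCAN22 at -0.16, whose interval spanned 1.

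The genes that were not measured include several long ones of the cluster from ZNF101 to ZNF254. Both ZNF208 and ZNF729 were at 0 in the 2 libraries, as were ZNF723 and ZNF728. At this depth 0 counts allow up to 4.38e-06% of the library labelled CIC knockdown and 6.37e-06% of control. In the last cluster of the long arm 7 genes had 0 counts in both, among them ZNF154, ZNF671 and ZNF132. ZNF626 had 19 counts in the library labelled CIC knockdown and 0 in control. With the 0 set to a floor of 3 counts it was 4.32-fold higher, and its counting interval begins at 3.18-fold. ZNF90 had 0 counts in the library labelled CIC knockdown and 8 in control. On the same floor it was 3.91-fold lower, and the counting interval of its ratio reaches up to 0.400. These 2 were named after their values were seen.

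How the counts were divided bears on many of these values. In 111 of the 200 measured genes more than 20% of the counts were divided differently between transcripts in the 2 libraries, with a median of 23.9%, and 27 genes have 1 listed transcript. Of all 249 genes, 94 overlap another gene. In 40, over 10% of the 100-base stretches of the transcript with the longest protein occur in another gene. Some of those other genes are GENCODE models with clone names, such as AC010422.6 for ZNF564. Whether reads were counted for such models was not checked. ZNF91 is among the genes with counts divided differently, at 68.8%. Its transcript XM_011528265 had 1581 counts in the library labelled CIC knockdown and 4 in control, while XM_011528266 had 182 and 501. These transcripts differ by 1 base in length, so the gene's total rather than either transcript carries its ratio.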

How the data were processed

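RNA-seq covered T47D secondary mammospheres, with 1 library labelled CIC knockdown and 1 control. Trimmomatic, HISAT2 and StringTie are the tools in the submitters' processing notes, which give GRCh38 (hg38) as build and no versions. For every gene and transcript the tables hold, per the file headers, an estimated read count, an FPKM and a TPM, all made by the authors; the deposited estimated counts are whole numbers and were not rounded further. The deposited FPKM values are per kilobase of transcript and scaled to library size, and the deposited TPM values were scaled to the same fixed sum per library. Columns marked KD were taken as the sample labelled CIC knockdown and those marked C as control; 0 columns of sample values were left unused.

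Library sizes (68420805 counts for CIC knockdown, 47099221 for control) were scaled with TMM in edgeR 4.0.16 under R 4.3.3, giving factors of 1.00 and 0.995. Log2 ratios used a prior count of 2. Intervals are exact Clopper-Pearson 95% intervals given the summed count. They cover counting error only, since PCR copies are not independent molecules and no replicate cultures were given as separate columns. No p-value was computed. The scripts were tested on simulated data. Alternatives used DESeq2 1.42.0 size factors, library totals, other filters, TPM, FPKM (pseudocount 0.1), the table with assembled transcripts, halved counts, and the omission of genes with uncertain counts.

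Clusters were split at gaps over 1 Mb. Named genes were the 10 highest and 10 lowest measured ratios, all past 2-fold, the 8 most abundant, the most abundant and the most changed of each cluster, 12 with known roles, and up to 4 per list; other names were chosen after their values were seen. The genes and lists were chosen with earlier results of these data known. A KRAB pattern was to be sought in RefSeq proteins; as no protein table was used here, GENCODE v29 coding sequences were translated instead. Promoters came from RefSeq (GRCh38.p14). Shared stretches of 100 bases were counted for each gene's GENCODE transcript with the longest protein, against all GENCODE transcripts of other genes. A share divided differently is the smallest percent of a gene's counts that would have to move between its transcripts to make both libraries' divisions equal.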

Additional observations from a re-analysis of the deposited data

Results flagged for a closer look

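Assembled splice variants, which the comparisons above do not use, carried signal in 13 of the zinc finger genes, with 16 variants and 15724 counts in the library labelled CIC knockdown and 8453 in control. In 3 genes a variant with at least 100 summed counts was at least 2-fold higher in the library labelled CIC knockdown, with a counting interval above 1, and in 3 a variant was at least 2-fold lower. The variant of ZNF525 had 1564 counts in the library labelled CIC knockdown and 19 in control, a ratio of 56.7 with a counting interval of 36.2 to 94.4, while the log2 ratio of the whole gene was -0.09. One variant listed under ZNF468 had 1498 counts in the library labelled CIC knockdown and 238 in control, a ratio of 4.33. It runs from 52797438 to 52857619 and so also reaches across the neighbour ZNF28, at 52797408 to 52821637. The other variant of ZNF468, which lies within that gene, had 405 counts in the library labelled CIC knockdown and 570 in control, a ratio of 0.489. The variant of ZNF146 had 1635 counts in the library labelled CIC knockdown and 467 in control, a ratio of 2.41, in a gene whose own interval spanned 1. The lower ones besides were variants of ZNF428, with 229 counts in the library labelled CIC knockdown and 356 in control (ratio 0.443), and of ZNF749, with 42 and 72 (ratio 0.402). The cause was not tested.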

How the results depend on the processing

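No paired analysis was possible because each group has 1 library, and for the same reason no library could be left out. The median log2 ratio of the zinc finger genes lay between 0.06 and 0.14 under 13 alternatives, and that of the ZNF101 to ZNF254 cluster between 0.21 and 0.28 under 15. With no filter on low counts, 15 genes were at least 1.5-fold higher and 15 lower, 8 were at least 2-fold higher and 11 lower, and the ZNF653 to ZNF791 median was 0.10. On TPM and on FPKM, both with the pseudocount of 0.1, 3 genes were at least 2-fold lower. They include ZNF233 (-1.16 on TPM), whose counting interval spanned 1. The shares of the libraries on these scales were 0.101% for CIC knockdown and 0.0970% for control. Without overlapping or readthrough genes, 45 were higher and 20 lower by interval, 2 were at least 2-fold lower, the shares were 0.214% for CIC knockdown and 0.202% for control, and the ZNF653 to ZNF791 median was 0.15. Without genes that divided over 20% of their counts differently, 40 were higher and 14 lower by interval, 3 and 2 past 1.5-fold and 1 and 0 past 2-fold (higher first), the shares were 0.184% for CIC knockdown and 0.175% for control, and the ZNF575 to ZNF296 median was -0.26. With clusters split at 0.5 Mb, the ZNF557 to ZNF846 median was 0.15. Without genes that share a 100-base stretch, an alternative chosen after seeing the data, 37 were higher by interval, 2 past 1.5-fold and 1 past 2-fold, with shares of 0.219% for CIC knockdown and 0.221% for control. These alternatives that omit genes leave fewer to count; for the rest the cause was not tested. In the table with assembled transcripts, ZNF761 changed sign to -0.15 from a call of higher, as did ZNF845, which is outside the named genes and went to -0.62, against 0.22 without those transcripts. TPM and FPKM give no counting interval. Depth limits genes under 100 summed counts.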
